A study of Mus musculus with 6 samples.

Results

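The S100 proteins are small calcium-binding proteins, and 9 of their genes (S100a1, S100a4, S100a6, S100a10, S100a11, S100a13, S100a14, S100a16 and S100g) were examined in the KPC line, which derives from a mouse pancreatic ductal adenocarcinoma. The genes were chosen by symbol, and all 9 were found among the 10616 genes of the count table. RNA-seq libraries were made from cells with a hairpin that targets Brca2 (shBrca2, 3 libraries) and from cells with a non-targeting hairpin (shControl, 3 libraries). Both hairpins were delivered by lentivirus in the pLKO.1 vector with puromycin selection, and both groups were the same parental line grown in growth medium, so a single line stands behind the comparison, and whether its cells were clonal is not stated. For each library 10000 live (propidium iodide negative) cells were sorted, and poly(A) RNA was read at its 3′ end by a variation of MARS-seq. The labels do not say if the 3 libraries of a group were grown apart, and a legend of the study counts mice for what its methods describe as cultured cells, so what a replicate was is uncertain. The p-values measure only the spread between these libraries, which may be technical.

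S100 proteins carry a pair of EF-hands, the helix-loop-helix motif that holds calcium, and most of them work as dimers. Calcium binding opens a surface that grips partner proteins, among them annexins, nonmuscle myosin and p53, and some S100 proteins are also released from cells and bind surface receptors such as RAGE. Most S100 genes lie in a cluster on mouse chromosome 3, next to genes of the epidermal barrier. In pancreatic ductal cancer, S100 proteins such as S100A4 and S100A6 are known as proteins of the tumor cells, and S100A4 is also used as a marker of fibroblasts and immune cells.

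The promoters of S100a6, the gene with the highest counts, and of its close neighbour S100a4 are shown. With them is the stretch between the S100a1 start and the S100a13 start of its promoter window, on opposite strands. They were chosen since these 4 genes gave the contrasts described further on. The sequences are from RefSeq on GRCm38.p6 (mm10, the build named for the deposited counts), 5′ to 3′ on the plus strand. In S100a6 (chr3:90612644-90612893) the capitals mark ATTGG, the reverse complement of the CCAAT box, and in S100a4 (chr3:90603520-90603769) they mark TATAAA, the TATA box. Between S100a1 and S100a13 (chr3:90514331-90514434) they mark each CG dinucleotide.
S100a6: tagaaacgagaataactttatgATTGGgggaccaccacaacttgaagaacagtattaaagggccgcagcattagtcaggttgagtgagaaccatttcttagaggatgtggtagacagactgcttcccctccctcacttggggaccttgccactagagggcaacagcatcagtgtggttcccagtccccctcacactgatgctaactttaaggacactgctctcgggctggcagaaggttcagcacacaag
S100a4: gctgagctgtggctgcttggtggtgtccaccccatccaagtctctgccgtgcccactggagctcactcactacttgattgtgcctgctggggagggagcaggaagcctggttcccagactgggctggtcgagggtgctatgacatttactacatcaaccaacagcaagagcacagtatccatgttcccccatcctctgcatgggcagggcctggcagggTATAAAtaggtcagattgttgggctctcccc
S100a1 to S100a13: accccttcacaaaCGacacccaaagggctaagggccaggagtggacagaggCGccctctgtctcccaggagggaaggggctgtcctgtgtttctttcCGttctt

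Of the 9 genes, 7 had a RefSeq promoter window (8 windows of 300 bases, 250 before and 50 after a start). Both strands were searched. TATAAA was found in 2 of the 8 windows, those of S100a4 and S100g, against 13.6% of all 32851 windows of that length. In S100a4 it began 31 bases before the start, and in S100g at the start itself. The CCAAT box was found in 1 window, that of S100a6, against 37.4%. The GC box GGGCGG was found in 2, those of S100a11 and the second window of S100a16, against 35.7%. The AP-1 motif TGANTCA was found in the same 2 windows, against 7.81% of all windows. By these windows 104 bases lie between the starts of S100a1 and S100a13. The annotated S100a13 gene begins further upstream, within S100a1, so these bases lie inside the S100a13 gene as a whole and upstream of the start that its window uses. The windows of S100a1 and S100a13 held none of the 4 motifs. These are matches of letters only, and no binding was measured.

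The libraries held between 1519340 and 2452467 counts. The targeted gene was examined first. Brca2 had normalized counts of 13.6, 10.4 and 12.2 in shBrca2 and 33.3, 43.6 and 32.6 in shControl (log2 fold change -1.61 ± 0.44 SE, adjusted p = 0.029 by the DESeq2 likelihood ratio test), and was lower in every shBrca2 library. The call was lost without shBrca2 replicate 2 (adjusted p = 0.152), shBrca2 replicate 3 (0.233) or shControl replicate 2 (0.371). A normalized count is a count divided by the library's size factor. The keratins of ductal epithelium were high (Krt18, 9184 normalized counts on average). Of the epithelial adhesion genes, Cdh1 had 911 normalized counts on average, while Epcam was near the lower limit (6.52). The mesenchymal filament gene Vim was high (8758). Of 7 fibroblast markers only Col1a2 was in the table (13.4), of 5 immune markers only Cd14 (344) and Cd68 (15.6), and of 3 endothelial markers none, so the others were not analysed here. The summed level of the immune markers ran from 224 to 362 normalized counts in shBrca2 and from 329 to 467 in shControl, and that of the 7 ductal markers from 16601 to 17373 and from 17456 to 18583. The part of these markers in the S100 values was not tested. In bulk libraries, fewer cells of a type and less RNA per cell cannot be told apart.

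S100a6 had the highest counts of the 10616 genes of the count table, which holds poly(A) RNA read at its 3′ end. It had rank 1 by counts in 6 of 6 libraries and exceeded the next gene, Clu or Fth1, between 1.60 and 2.76 times. S100a6, also called calcyclin, is a calcium sensor that binds annexins and the calcyclin-binding protein. Its share of all counts was 2.17%, 2.04% and 2.27% in shBrca2 and 1.83%, 1.85% and 2.01% in shControl. The 95% Wilson interval of each of these shares was at most ± 0.0232 percentage points wide on either side, and it covers counting error only. The 9 S100 genes together made up 2.62 ± 0.0720% of each shBrca2 library and 2.32 ± 0.111% of each shControl library (mean ± SD, n = 3). The shBrca2 libraries lay between 2.54% and 2.67% and the shControl libraries between 2.24% and 2.45%, so the ranges did not overlap. Without S100a6 the shares were 0.457 ± 0.0456% and 0.425 ± 0.0120% (SD, n = 3), and the ranges overlapped.

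**Figure D1:**
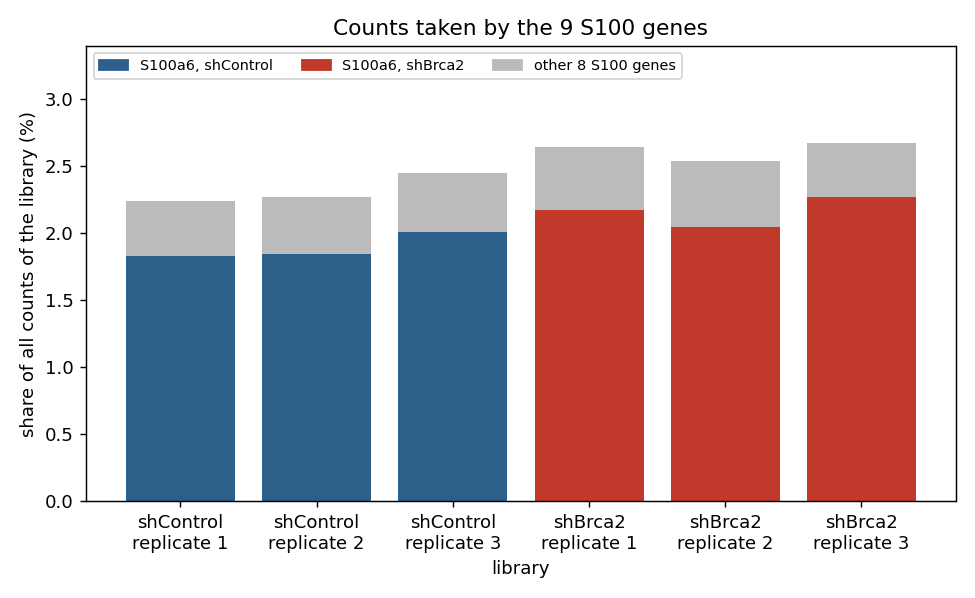
Share of all counts of each library (percent, vertical axis) taken by S100a6 (coloured by hairpin) and by the other 8 S100 genes (grey), 1 bar per library. S100a6 made up most of every bar, from 1.83% to 2.27% of counts, and the whole bars of shBrca2 (2.54% to 2.67%) stood above those of shControl (2.24% to 2.45%).

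The other members followed at a distance. By mean normalized count over the 6 libraries the order was S100a6 (41881), S100a10 (3328), S100a4 (1900), S100a13 (1433), S100a16 (902), S100a11 (847), S100a1 (657), S100a14 (34.9) and S100g (9.10). A 3′ end count does not grow with transcript length, so these counts were set side by side without a length correction. Each gene exceeded the next in 6 of 6 libraries, except that S100a16 exceeded S100a11 in 4 of 6, so this pair cannot be ordered. S100a6 was 12.6 times S100a10. Within the S100 counts of a library, S100a6 made up from 80.5% to 84.8%, S100a10 from 5.70% to 7.47% and S100a4 from 2.81% to 4.34%.

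**Figure D2:**
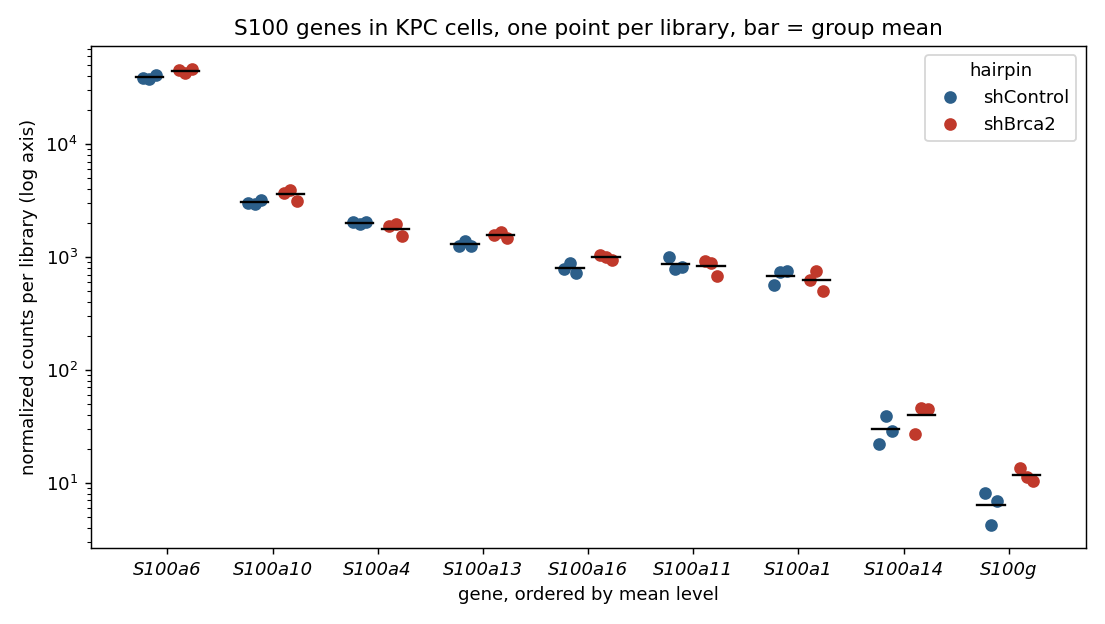
Normalized counts (log axis) of the 9 S100 genes, ordered by mean level, with 1 point per library and a bar at each group mean. The genes ran from S100a6 at 41881 to S100g at 9.10, and the red and blue points of a gene lay close together compared with the distances between most genes.

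To ask whether knockdown of Brca2 changed these genes, shBrca2 was compared with shControl in a fit over the whole table. None of the 9 S100 genes passed the test (adjusted p under 0.1, absolute log2 fold change over 0.5 and base mean over 5, DESeq2 likelihood ratio test), where 1.27% of all tested genes did. Thus 0 rose, against 0.770% of all tested genes, and 0 fell, against 0.5% (50 of 9997 genes). Without the fold change minimum 0 members passed as well, against 1.31%. The edgeR quasi-likelihood test called 0 members too, where it called 1.33% of genes. All 9 had an adjusted p, and the smallest was 0.471, for S100a16. An unadjusted p under 0.05 was found for 2 of the 9 (S100a13 and S100a16) by DESeq2, against 8.66% of all tested genes, and for 3 by edgeR, which added S100g. The fold changes were positive for 6 members and negative for 3, with a median log2 fold change of 0.22 where the median of all tested genes was -0.00094. The normalized counts of 4 members (S100a6, S100a13, S100a16 and S100g) were higher in every shBrca2 library than in every shControl library, against 10.2% of all tested genes, and 0 members were lower without overlap, against 10.4%. The members come from the same 6 libraries and are not independent of each other.

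**Figure D3:**
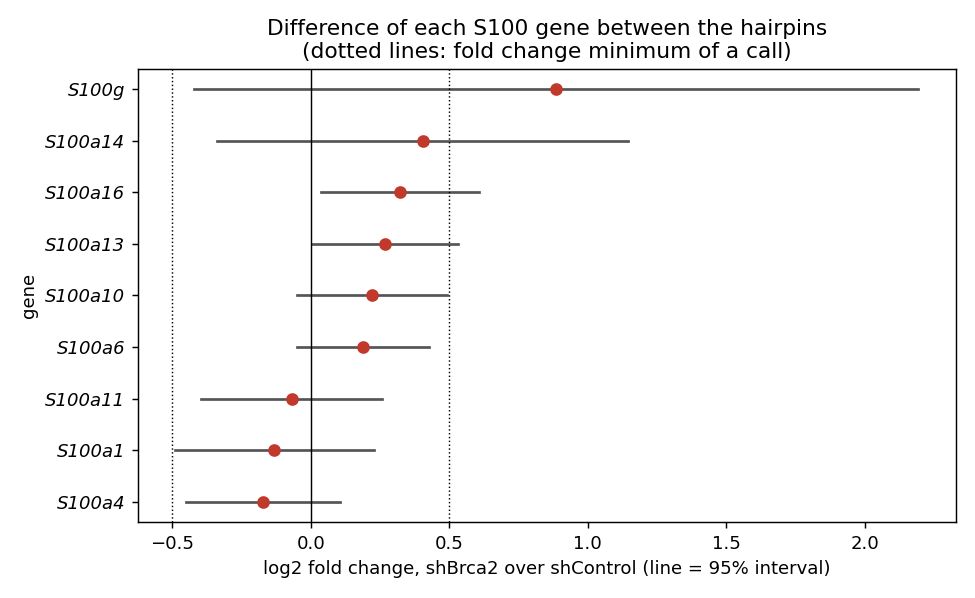
Log2 fold change of each S100 gene, shBrca2 over shControl, with its 95% interval as a line, and dotted lines at the fold change minimum of 0.5. S100a4, S100a1 and S100a11 lay below 0 and the other 6 above, 7 of the 9 intervals held 0, and the intervals of S100a13 and S100a16 began at 0.0041 and 0.036.

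S100a6 had 44951, 42390 and 46561 normalized counts in shBrca2 and 38775, 37957 and 40651 in shControl. Every shBrca2 library was above every shControl library. The log2 fold change was 0.19 ± 0.12 (SE, adjusted p = 0.73 by DESeq2), a ratio of 1.14 with a 95% interval from 0.967 to 1.35. A rise of S100a6 beyond 1.35 times therefore lay outside the interval, while a rise of the size measured did not pass the test.

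S100a10 and S100a11 are the annexin partners of the family. S100a10, also called p11, has lost calcium binding and joins annexin A2 in a tetramer at the plasma membrane, where it takes part in plasminogen activation. It had 3693, 3932 and 3127 normalized counts in shBrca2 and 3029, 2968 and 3218 in shControl. The lowest shBrca2 library, replicate 3, lay within the range of the control (log2 fold change 0.22 ± 0.14 SE, adjusted p = 0.72 by DESeq2, ratio 1.17 with a 95% interval from 0.967 to 1.41). S100a11, which binds annexin A1, had 917, 883 and 682 normalized counts in shBrca2 and 996, 790 and 814 in shControl. Its groups overlapped, with the highest value in shControl and the lowest in shBrca2 replicate 3 (log2 fold change -0.07 ± 0.17 SE, adjusted p = 0.975 by DESeq2). S100a11 has a pseudogene on chromosome 12, so the assignment of some of its reads is uncertain.

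S100a4, also called metastasin, binds nonmuscle myosin heavy chain and is linked to cell motility. It had 1869, 1953 and 1540 normalized counts in shBrca2 and 2061, 1946 and 2029 in shControl. Replicate 3 of shBrca2 stood lowest, and replicate 2 of shBrca2 lay just above the lowest control (log2 fold change -0.17 ± 0.14 SE, adjusted p = 0.853 by DESeq2, ratio 0.888 with a 95% interval from 0.732 to 1.08). S100a4 and S100a6 differed in direction although S100a6 lies only 6.85 kb downstream of the end of S100a4. The ratio of S100a6 to S100a4 counts was 24.1, 21.7 and 30.2 in shBrca2 and 18.8, 19.5 and 20.04 in shControl. This ratio was chosen after the values were seen. It was higher in every shBrca2 library, which is a description of a pair picked for its values, and the intervals of both genes held a ratio of 1. Exons of S100a4 overlap those of Gm42674, transcribed in the same direction, which leaves its count uncertain.

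S100a13 and S100a16 were the members with the smallest p. S100a13 takes part in the release of proteins that lack a signal peptide, such as FGF1. It had 1571, 1651 and 1476 normalized counts in shBrca2 and 1265, 1390 and 1245 in shControl, so the groups did not overlap. The log2 fold change was 0.27 ± 0.13 (SE, adjusted p = 0.567 by DESeq2), a ratio of 1.20 with a 95% interval from 1.003 to 1.45. S100a16, a broadly expressed member, had 1050, 1008 and 948 normalized counts in shBrca2 and 791, 888 and 724 in shControl. These groups did not overlap either (log2 fold change 0.32 ± 0.15 SE, adjusted p = 0.471 by DESeq2, ratio 1.25 with a 95% interval from 1.03 to 1.52). Both differences were thus larger than the spread between libraries taken alone and did not pass the adjustment over all genes.

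The library pattern of S100a16 was set against every gene with a base mean of at least 20, by the root mean square difference of centred log2 values over the 6 libraries. The nearest were Atp6v0d1 (0.0401), Trim56 (0.0489) and Zfp217 (0.0498), where the median of 7795 genes was 0.299. S100a13 was the nearest member and had rank 10 of all genes (0.0632), S100a10 had rank 350 and S100a6 rank 366. S100a11 had rank 2964, S100a4 rank 3442, S100a1 rank 4300 and S100a14 rank 4886. These distances describe 6 libraries that share their depth and size factors, and the nearest genes did not pass the test either.

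S100a1, which regulates calcium cycling and is best known from muscle, had 628, 752 and 502 normalized counts in shBrca2 and 570, 735 and 753 in shControl. The spread within each group was wide and the groups overlapped (log2 fold change -0.13 ± 0.18 SE, adjusted p = 0.937 by DESeq2). The 3 lowest values (shBrca2 replicates 1 and 3 and shControl replicate 1) fell in the libraries with negative scores on the first principal component of all genes, which took 41.1% of the variance. The scores were -21.4, -21.95 and -9.41 there and 1.25, 13.6 and 37.98 in the other 3 libraries. With 1 surrogate variable in the fit, the log2 fold change of S100a1 was 0.0065. Members moved both ways in that fit, S100a16 from 0.32 to 0.29 and S100a14 from 0.40 to 0.56. The match with the first component describes 1 member over 6 libraries, and its part in the fold change was not tested. S100a1 and S100a13 overlap at their 5′ ends on opposite strands, S100a13 also overlaps Chtop, again in the opposite direction. Whether counting was stranded is unknown, so reads from a shared stretch may not be told apart. In RefSeq, S100a1 and S100a13 share the bases from 90514233 to 90514330, at their 5′ ends, while RNA was read at its 3′ end. How many reads fell in shared stretches was not measured. The ratio of S100a13 to S100a1 counts was 2.50, 2.20 and 2.94 in shBrca2 and 2.22, 1.89 and 1.65 in shControl, which overlapped (exact permutation test, two-sided, p = 0.2, where 0.1 is the smallest possible). Since S100a13 was among the members with the smallest p and S100a1 had a negative fold change, this p is a description only.

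The remaining members were scarce. S100a14, known from epithelial cells, had 27.2, 46.3 and 45.2 normalized counts in shBrca2 and 22.2, 39.4 and 28.7 in shControl. The groups overlapped (log2 fold change 0.40 ± 0.38 SE, adjusted p = 0.879 by DESeq2). S100g, also called calbindin-D9k, carries calcium through the cytoplasm of intestinal and kidney epithelium and lies on chromosome X, away from the cluster. Its raw counts were 10, 12 and 12 in shBrca2 and 8, 5 and 7 in shControl, and its normalized counts were 13.6, 11.3 and 10.4 against 8.08, 4.19 and 6.92. The groups did not overlap, and the log2 fold change of 0.89 ± 0.67 (SE) had an adjusted p of 0.822 by DESeq2. The 95% interval of its ratio ran from 0.747 to 4.57, which holds both no difference and a large one. S100g overlaps Ctps2 on the opposite strand.

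The position of the genes was then considered. In mm10, the S100 genes of the table on chromosome 3 span from 90511034 to 93564645 (3054 kb). The span holds 101 annotated genes, and 14 were in the table, 10 S100 genes and 4 others. The first group, S100a1 (90511034 to 90514330), S100a13 (90514233 to 90524581), S100a14 (90526849 to 90528837) and S100a16 (90537254 to 90543151), is followed by S100a3, S100a4 (90603770 to 90606045), S100a6 (90612894 to 90614414) and S100a7a. S100a11 (93520496 to 93526288) and S100a10 (93555117 to 93564645) lie beyond the epidermal barrier genes. In this order the log2 fold changes were -0.13 for S100a1, 0.27 for S100a13, 0.40 for S100a14, 0.32 for S100a16, -0.52 for S100a3, -0.17 for S100a4, 0.19 for S100a6 and -0.19 for S100a7a, and then -0.07 for S100a11 and 0.22 for S100a10. None of these passed the test, and both signs occurred in the first group and in the next.

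**Figure D4:**
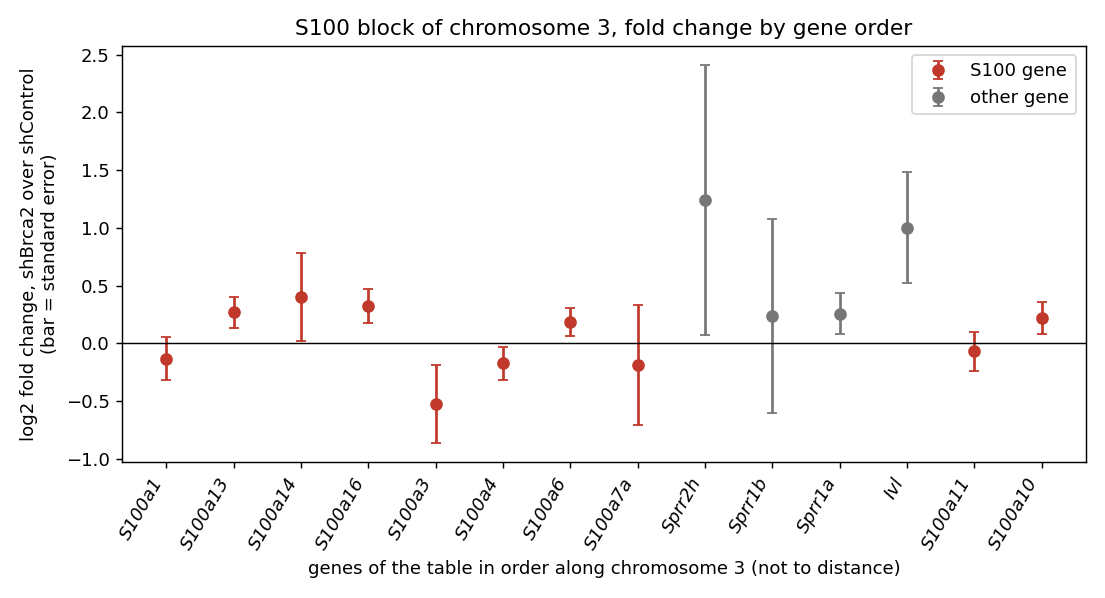
Log2 fold change, shBrca2 over shControl, with its standard error as a bar, of the 14 genes of the table in their order along the S100 span of chromosome 3 (S100 genes in red, others in grey, spacing not to distance). The 10 S100 genes ran from -0.52 (S100a3) to 0.40 (S100a14) with both signs along the span, and the widest bars belonged to scarce genes.

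Of the other S100 genes, S100a3, S100a7a and S100z were in the table, and the remaining 7 listed were not analysed here. S100a3 had 54.5, 56.7 and 28.7 normalized counts in shBrca2 and 58.6, 51.2 and 89.98 in shControl (log2 fold change -0.52 ± 0.34 SE, adjusted p = 0.741 by DESeq2), and it overlaps S100a2 on the same strand. S100a7a had a mean of 15.9 normalized counts and a log2 fold change of -0.19 ± 0.52 (SE). S100z, with a mean of 3.48, had no adjusted p. Of the 4 barrier genes within the span 0 of 3 tested passed the test, where 1.27% of all tested genes did. Sprr1a, a cornified envelope protein, had 1168 normalized counts on average and a log2 fold change of 0.26, Ivl (involucrin) had 19.4 and 1.003, and Sprr1b had 5.67 and 0.24.

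The known partners of S100 proteins were examined as a list of 21 genes, of which 19 were in the table and 18 tested. By DESeq2, 0 rose and 0 fell, against 0.770% and 0.5% of all tested genes, and 18 genes are too few to set against these shares. The median log2 fold change was -0.09. Anxa2, the partner of S100a10, was among the genes with the highest counts (9437 normalized counts on average, rank 11) and had a log2 fold change of 0.19 ± 0.15 (SE). The ratio of S100a10 to Anxa2 counts was 0.318, 0.434 and 0.331 in shBrca2 and 0.357, 0.298 and 0.401 in shControl (exact permutation test, two-sided, p = 0.9, with 0.1 the smallest possible). Anxa1, the partner of S100a11, had a log2 fold change of 0.28 ± 0.15 (SE, adjusted p = 0.614 by DESeq2), and the ratio of S100a11 to Anxa1 counts was 0.479 ± 0.134 in shBrca2 and 0.592 ± 0.0891 in shControl (SD, n = 3, exact permutation test, two-sided, p = 0.4). Ahnak, a scaffold that binds the S100a10 and annexin A2 complex, had a log2 fold change of -0.32 ± 0.18 (SE). Myh9, the nonmuscle myosin heavy chain bound by S100A4, was chosen for mention after its values were seen. It had 646, 717 and 542 normalized counts in shBrca2 and 902, 812 and 989 in shControl, which did not overlap. Its log2 fold change was -0.50 ± 0.16 (SE, adjusted p = 0.119 by DESeq2). It was called with total counts as size factors (adjusted p = 0.0959) and without shBrca2 replicate 2 (0.0642).

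Plasminogen activation, in which S100a10 takes part, was considered through its receptors. The urokinase receptor gene Plaur had a log2 fold change of -0.001 at 1140 normalized counts on average, and the plasminogen receptor gene Plgrkt one of 0.34 (adjusted p = 0.554 by DESeq2).

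For calcium transport across the cell, the setting in which S100g is known, 3 of 11 genes were in the table and 2 were tested. Of these 0 were called, where 1.27% of all tested genes were. Atp2b1, a plasma membrane calcium pump, had 77.6, 84.1 and 106 normalized counts in shBrca2 and 72.7, 58.7 and 58.3 in shControl (log2 fold change 0.51 ± 0.26 SE, adjusted p = 0.592 by DESeq2). Rxra, the partner of the vitamin D receptor, had a log2 fold change of 0.04, and the pump gene Atp2b4 had no adjusted p. Of 6 receptors for extracellular S100 proteins, 4 were tested and 0 were called, against the same 1.27%. Both lists are too short to set against that share. Bsg (basigin) had a log2 fold change of -0.14, Cd44 one of 0.20 and Alcam one of 0.17. Ager, the gene of RAGE, was chosen for mention after its values were seen. It had raw counts of 7, 7 and 11 in shBrca2 and 4, 6 and 0 in shControl, and an adjusted p of 0.706 by DESeq2.

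Among 43 other EF-hand proteins, 38 were in the table and 35 tested, 1 rose and 0 fell, and the median log2 fold change was 0.04. Over all tested genes 0.770% rose and 0.5% fell, and 35 genes are too few to set against these shares. Chp1, a calcineurin-like cofactor of sodium-proton exchangers, rose from 472, 497 and 544 normalized counts in shControl to 677, 747 and 742 in shBrca2 (log2 fold change 0.52 ± 0.15 SE, adjusted p = 0.0487 by DESeq2). The call was lost without shBrca2 replicate 2 (adjusted p = 0.142), shBrca2 replicate 3 (0.182), shControl replicate 1 (0.171) or shControl replicate 2 (0.327), so it held in 2 of the 6 fits that left out a library. Chp1 overlaps Exd1 on the opposite strand. Calm2, which encodes calmodulin, had a log2 fold change of 0.04 at 1384 normalized counts on average, and the actin crosslinker gene Actn4 one of 0.02.

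Among 7 ductal epithelium markers, 2 rose (0.770% of all tested genes did) and 0 fell, while 4 of the 7 had negative fold changes and the median log2 fold change was -0.06. Among 6 tested genes of the mesenchymal state, 0 rose and 1 fell (0.5% of all tested genes did), with a median of -0.13. Krt7 had a log2 fold change of 1.21 and the ductal transcription factor gene Sox9 one of 1.20, with adjusted p-values by DESeq2 of 2.07e-06 and 0.0391. Sox9 lost its call without shBrca2 replicate 2 (adjusted p = 0.151), shBrca2 replicate 3 (0.64), shControl replicate 1 (0.187) or shControl replicate 2 (0.462). Fn1 (fibronectin) fell by 0.89 on the log2 scale (adjusted p = 0.000524, DESeq2). Krt18, Epcam, Vim and Cdh2 had log2 fold changes of -0.12, -0.55, -0.13 and -0.12, and none of them was called. The rest of both lists went both ways. The log2 fold change was 0.32 for Cdh1, 0.99 for Snai2 and 0.46 for Zeb1. It was -0.64 for Twist1, -0.17 for Krt8 and -0.06 for Krt19, and none of these was called either. Snai2, Zeb1 and Twist1 were scarce (16.3, 22.7 and 13.5 normalized counts on average). Among immune and fibroblast markers, Cd14 had a log2 fold change of -0.45 (adjusted p = 0.523 by DESeq2), Cd68 one of 0.27 and Col1a2 one of 0.01.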

How the data were processed

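RNA-seq was measured in 6 libraries of KPC cells, 3 shBrca2 and 3 shControl, grouped by the source name in the labels, which number no replicates (numbers here only name libraries). The authors deposited raw counts per gene symbol, with 1 column per library, not normalized and not pooled. The submitters' processing notes name bcl2fastq, cutadapt, STAR 2.4.2a, HTSeq and DESeq2 and the build mm10. The annotation, whether counting was stranded and whether molecular identifiers were used are not given in the sources used here, so intervals on shares hold counting error only.

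Counts were fitted over all 10616 genes with DESeq2 1.42.0 in R 4.3.3 (median-of-ratios size factors, likelihood ratio test of group, Benjamini-Hochberg adjustment), as in the methods of the study. Calls needed an adjusted p below 0.1, a base mean above 5 and a log2 fold change beyond 0.5 in either direction. Fold changes, shBrca2 relative to shControl, were not shrunken, and 95% intervals are from the standard error. DESeq2 gave 9997 genes an adjusted p, and a base mean under 4.64 was filtered. Alternatives used edgeR 4.0.16, sva 3.50.0, other scalings, filters and thresholds, and each library left out. The pipeline was tested on simulated counts.

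Genes were matched by symbol to RefSeq on GRCm38.p6, 10573 directly and 33 through an older symbol, with 10 unmatched. Overlaps between genes are from GENCODE vM39 and were used by name only. Members and lists were chosen with earlier results of these data known. One called gene of the lists is not reported here. Genes named were the 9 members, Brca2, of each list the called genes and otherwise the most abundant up to 3, and the 3 genes nearest in pattern to the member with the smallest p. Myh9, Ager and the other ductal and mesenchymal markers were named outside this rule. The fold changes of Cdh1, Krt8, Krt19, Snai2, Zeb1 and Twist1 were not compared under the alternatives. S100a10 and S100a14 had no promoter window in the table used.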

Additional observations from a re-analysis of the deposited data

How the results depend on the processing

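No paired analysis was possible because the labels give the groups no shared replicate numbers. No S100 gene was called under any alternative run. Of 128 comparisons of a member with an alternative, 124 kept their direction and their side of the threshold and 4 reversed, all near 0, while 7 for S100g gave no adjusted p. Some of the 124 could not reverse. The Wald test, no independent filtering, the stricter adjusted p of 0.05 and no fold change minimum all kept the main fold change. The stricter adjusted p also could not add a call. With 1 surrogate variable S100a1 stood at 0.0065 (log2), and across the 6 fits that each left out a library it ranged from -0.29 to 0.0099 and S100a11 from -0.15 to 0.056. The cause was not tested. The genes called over the whole table numbered 127 and ranged from 47 (without shBrca2 replicate 3) to 140 across those fits, with 55 without shControl replicate 2 and 81 without shBrca2 replicate 1, where fewer samples were fitted. The called genes of the lists numbered 5 and ranged from 2 to 5 across those fits, 2 without shBrca2 replicate 3 and 3 without shControl replicate 1 or shControl replicate 2. The difference in the summed S100 share was 0.298 percentage points, from 0.259 to 0.362 across those fits, 0.337 without ribosomal protein genes and 0.0322 without S100a6. Among other named genes, 224 of 253 comparisons were unchanged in direction and call, 12 were weaker, 2 stronger and 15 reversed. Plaur reversed to 0.0044 by edgeR. Across the fits that left out a library, the reversing genes ranged from -0.15 to 0.077 (Plaur), -0.055 to 0.15 (Rxra), -0.019 to 0.39 (Alcam), -0.017 to 0.10 (Calm2), -0.018 to 0.069 (Actn4), -0.25 to 0.57 (Col1a2), -0.32 to 0.098 (Cdh2) and -0.35 to 0.018 (S100a7a), and Sprr1b was at -0.14 in the 1 such fit that gave it an adjusted p. Brca2 lost its call without shBrca2 replicate 2, shBrca2 replicate 3 or shControl replicate 2 (adjusted p = 0.152, 0.233 and 0.371 by DESeq2). S100g and S100a14 had the fewest counts of the members and the widest intervals, and the part of depth was not tested.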
